A study of Mus musculus with 4 samples.

Results

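Eph receptors and ephrins form the largest family of receptor tyrosine kinases and their membrane-bound ligands, and 10 of its genes with known expression domains in the limb bud were followed here. They were the receptors Epha3, Epha4, Epha7, Ephb2 and Ephb3 and the ligands Efna1, Efna2, Efna5, Efnb1 and Efnb2. They were taken by gene symbol from a deposited table of 25239 genes, and all 10 were present in it. The choice used knowledge of the family, not a threshold on the counts, but it was made with earlier results of these data known. The remaining 12 genes of the family and 36 genes that act downstream of it were read beside them.

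RNA had been sequenced from hindlimb bud cells of FVB mouse embryos at embryonic day 11.5. The same transgene was present in all embryos, at H11: mCherry under an hsp68 promoter and the human ZRS, a limb enhancer of Shh, carrying 404G>A. The endogenous genotype is labelled wild-type. Anterior cells that were mCherry-positive (2 libraries) were compared with central cells that were mCherry-negative (2 libraries), each obtained by dissection and then sorting. The groups therefore differ in position and in reporter activity at once, and these cannot be told apart. Nothing in the labels says whether libraries of a group came from separate embryos or pools, so p-values measure only the spread between these libraries.

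Ephrins are bound to the cell surface, so signalling takes place where neighbouring cells touch. A-type ephrins are held by a lipid anchor and mainly bind EphA receptors, whereas B-type ephrins span the membrane and mainly bind EphB receptors; EphA4 binds both types. Binding signals into both cells, and usually results in repulsion or sorting of cells. In the limb bud the family is known for steering motor axons between dorsal and ventral muscle, for keeping mesenchymal compartments apart and for shaping cartilage condensations.

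Of the 10 genes, 7 were called (adjusted p under 0.05, edgeR quasi-likelihood test, adjusted over all 14610 genes tested). Expression was higher in anterior cells for Epha4, Efnb1 and Ephb2 and lower for Epha7, Efnb2, Efna5 and Ephb3. Epha3, Efna1 and Efna2 were not called. Across all tested genes 22.9% were called, 10.7% as higher and 12.3% as lower in anterior cells. All 10 passed the filter on low counts. Their median absolute log2 fold change was 0.67, against 0.22 for all tested genes. Because the genes went both ways, their signed median was -0.20 (all tested genes, -0.01).

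**Figure D1:**
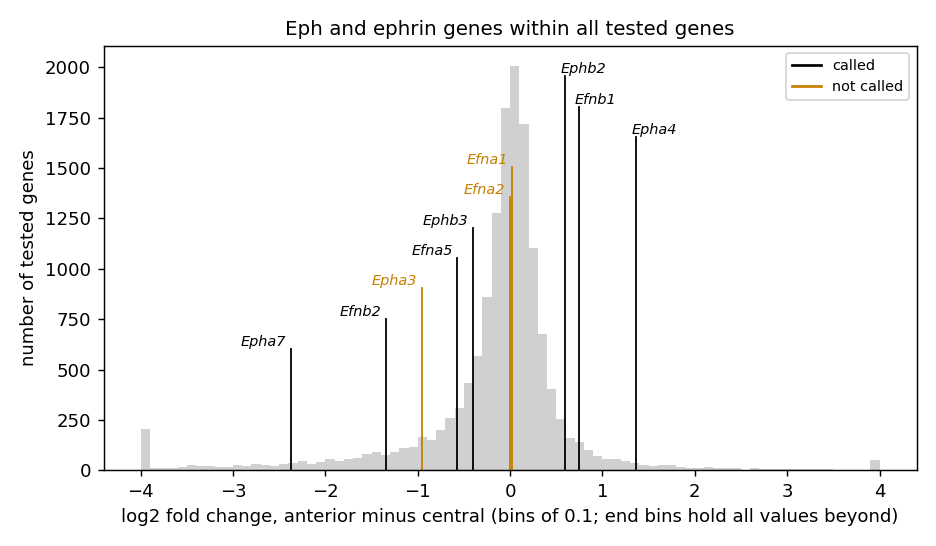
Distribution of the log2 fold change (x axis, anterior minus central, bins of 0.1) over all 14610 tested genes (y axis, number of genes), with each of the 10 Eph and ephrin genes marked by a line whose height only makes room for its label. Efna1 and Efna2 sit at the centre, and Epha7 (-2.37) and Epha4 (1.37) lie farthest out on either side.

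The regions just before the start sites are shown for the EphA receptor and the ephrin-B ligand pairs that moved in opposite directions, namely Epha4 and Efnb1 (higher) and Epha7 and Efnb2 (lower). Each is the 250 bases before the first start listed by RefSeq on GRCm38.p6, read 5′ to 3′ on the strand of the gene. For Epha7, and for Efna1 below, RefSeq lists 2 starts, and only the first was used. Capitals mark CCAAT, the core bound by NF-Y, or its reverse complement ATTGG.
Epha4 (chr1:77515089-77515338, minus strand): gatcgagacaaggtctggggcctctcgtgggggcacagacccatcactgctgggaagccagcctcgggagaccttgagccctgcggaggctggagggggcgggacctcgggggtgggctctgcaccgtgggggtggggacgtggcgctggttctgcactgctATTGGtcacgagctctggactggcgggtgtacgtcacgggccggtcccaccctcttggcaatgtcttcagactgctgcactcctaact
Efnb1 (chrX:99135811-99136060, plus strand): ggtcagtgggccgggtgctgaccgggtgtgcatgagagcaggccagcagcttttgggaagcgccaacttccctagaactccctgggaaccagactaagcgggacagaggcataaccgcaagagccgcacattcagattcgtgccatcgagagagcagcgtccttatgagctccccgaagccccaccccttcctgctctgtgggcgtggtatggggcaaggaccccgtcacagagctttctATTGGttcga
Epha7 (chr4:28812881-28813130, plus strand): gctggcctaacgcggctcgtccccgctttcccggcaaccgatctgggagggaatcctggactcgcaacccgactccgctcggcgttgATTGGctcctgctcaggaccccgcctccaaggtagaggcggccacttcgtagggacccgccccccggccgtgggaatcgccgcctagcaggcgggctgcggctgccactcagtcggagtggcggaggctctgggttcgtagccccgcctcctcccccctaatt
Efnb2 (chr8:8661243-8661492, minus strand): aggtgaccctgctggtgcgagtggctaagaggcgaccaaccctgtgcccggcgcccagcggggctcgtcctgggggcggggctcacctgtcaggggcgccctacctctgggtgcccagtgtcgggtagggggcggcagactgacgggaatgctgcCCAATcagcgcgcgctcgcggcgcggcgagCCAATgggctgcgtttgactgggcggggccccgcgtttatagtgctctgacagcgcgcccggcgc

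All 10 genes matched a RefSeq promoter by symbol. Their windows had a median GC content of 67.2%, against 55.2% over the 18651 promoters of genes in the count table (leaving out chromosome 18, as in the shares that follow). That background also holds genes with too few counts to be tested, whereas all 10 were tested. CCAAT, searched on both strands, occurred in 5 of the 10, those of Epha4, Epha7, Ephb2, Efnb1 and Efnb2, and in 36.2% of the promoters of genes in the count table. These 5 genes include 3 that were higher and 2 that were lower in anterior cells. GGGCGG, the GC box core, occurred in 7 of 10, against 42.2%. Of the HOX13 cores searched, TTTATT occurred in 0 of 10 (against 15.9%) and TTTACG only in Efna1 (1 of 10, against 2.7%). TAATTA, a LIM-homeodomain core that is its own reverse complement, also occurred only in Efna1 (against 4.40%). Both Efna1 matches lie inside the gene as GENCODE annotates it, since 191 of the 250 bases of that window do, and 40 bases of the Ephb3 window lie inside its gene. The GENCODE start lies 69 bases downstream of the RefSeq start for Efnb1 and 24 bases downstream for Ephb2. These matches describe letters in a short window and say nothing of binding there or elsewhere.

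Epha4 (GRCm38 chr1:77367185-77515088, minus strand) encodes the receptor that accepts ligands of both classes and that marks dorsal limb mesenchyme and the motor axons entering it. Its level was 576.0 and 635.8 CPM (counts per 1 M, TMM-scaled) in the 2 anterior libraries, against 243.1 and 226.3 CPM in central cells. Both anterior libraries were far above both central ones. Mean levels of 605.9 ± 42.3 and 234.7 ± 11.9 CPM (SD, n = 2 per group) gave a 2.58-fold difference, with a log2 fold change of 1.37 ± 0.07 (SE, edgeR adjusted p = 7.04e-06). Lmx1b, the dorsal selector gene of limb mesenchyme, was at 155.9 ± 7.2 and 158.9 ± 7.9 CPM in the same libraries (SD, n = 2), with a log2 difference of -0.03 (95% interval -0.19 to 0.13, edgeR adjusted p = 0.828).

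Epha7 (chr4:28813131-28967499, plus strand) encodes an ephrin-A receptor of limb mesenchyme and forming cartilage. It moved the other way and by more, at 21.1 and 16.8 CPM in anterior cells and 101.5 and 94.96 CPM in central cells. The groups were about 5-fold apart, and the anterior libraries differed 1.26-fold from each other. Of all tested genes, 18.2% differed more than Epha7 between the anterior libraries and 63.5% between the central libraries. The log2 fold change was -2.37 ± 0.12 (SE, edgeR adjusted p = 3.98e-06). HOXA13 and HOXD13 have been reported to bind and regulate Epha7 in the developing limb, which was not tested here. Their genes were higher in the anterior cells, where Epha7 was lower: Hoxa13 measured 158.2 ± 4.2 against 46.7 ± 8.5 CPM, and Hoxd13 763.5 ± 122.2 against 252.8 ± 74.4 CPM (SD, n = 2; log2 fold changes 1.76 and 1.59, edgeR adjusted p = 1.60e-05 and 0.000404).

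Epha3 (chr16:63543534-63864175, minus strand), another receptor for ephrin-A ligands, gave the least settled result. Anterior replicates 1 and 2 had 628 and 136 counts (18.8 and 4.64 CPM), and the central replicates had 750 and 692 counts (24.4 and 21.4 CPM). Both anterior values were below both central ones, but the second anterior library was 4.06 times lower than the first. Only 12 of the 14610 tested genes differed more between the anterior libraries, on log2(CPM + 0.5); between the central libraries Epha3 was unremarkable, as 39.0% of genes differed more. The log2 fold change was -0.95 ± 0.47 (SE, 95% interval -2.02 to 0.11) and was not called (edgeR adjusted p = 0.185). It was called without anterior replicate 1 (log2 fold change -2.30, adjusted p = 1.42e-06) and not without anterior replicate 2 (-0.27, adjusted p = 0.340). It was also called with no low-count filter (adjusted p = 0.0315) and with the replicate block (0.0147). Over all alternatives the adjusted p ran from 1.42e-06 to 0.578, the latter with DESeq2. The anterior libraries also differed in summed primitive erythroid genes, at 3287 and 8382 CPM, and in summed myogenic precursor genes, at 18.6 and 9.61 CPM. By smaller ratios they differed in summed cartilage genes (357.4 and 264.6 CPM) and endothelial (13.6 and 20.1 CPM), neuronal (23.7 and 16.2 CPM) and macrophage markers (19.7 and 14.4 CPM). Without Isl1 (4.56 and 0.68 CPM) the neuronal sums were 19.2 and 15.5 CPM. The part of these cell types in the Epha3 result was not tested.

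Ephb2 and Ephb3, ephrin-B receptors that overlap in function in many embryonic tissues, went in opposite directions by modest amounts. Ephb2 (chr4:136647539-136835988, minus strand) was at 132.2 and 126.7 CPM in anterior cells and 87.0 and 84.7 CPM in central cells. Its replicates lay close together and the groups were apart, with a log2 fold change of 0.59 ± 0.07 (SE, edgeR adjusted p = 0.000446). Ephb3 (chr16:21204755-21223305, plus strand) was at 143.9 and 132.9 CPM in anterior cells and 177.1 and 187.5 CPM in central cells. Its groups did not overlap either, and the log2 fold change was -0.40 ± 0.07 (SE, edgeR adjusted p = 0.00438). This call was lost without anterior replicate 2 (-0.34, adjusted p = 0.0590).

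Efnb1 and Efnb2, the transmembrane ligands, were also opposed. Efnb1 (chrX:99136130-99148991, plus strand), whose loss disturbs skeletal patterning, was at 216.0 and 221.8 CPM in anterior cells and 125.6 and 134.8 CPM in central cells. Its anterior values were all above its central ones, by a log2 fold change of 0.75 ± 0.07 (SE, edgeR adjusted p = 0.000101). Efnb2 (chr8:8617434-8661242, minus strand), made by dorsal limb mesenchyme and by arterial endothelium, was at 63.7 and 54.0 CPM in anterior cells and 165.6 and 133.1 CPM in central cells. It was lower in both anterior libraries, by a log2 fold change of -1.34 ± 0.12 (SE, edgeR adjusted p = 9.69e-05), or 2.54-fold.

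Of the lipid-anchored ligands, Efna5 alone was called. Efna5 (chr17:62604184-62881317, minus strand), which repels motor axons bearing EphA4, was at 30.7 and 28.0 CPM in anterior cells and 44.8 and 42.4 CPM in central cells. Both anterior values were lower, with a log2 fold change of -0.57 ± 0.10 (SE, edgeR adjusted p = 0.00334). Efna2 (chr10:80179482-80190010, plus strand) was at 114.6 and 116.6 CPM in anterior cells and 114.7 and 117.0 CPM in central cells. The groups overlapped, and the 95% interval of the log2 difference ran from -0.15 to 0.14 around -0.003 (edgeR adjusted p = 0.977). Efna1 (chr3:89271733-89281142, minus strand), a ligand also made by blood vessels, was at 13.7 and 15.1 CPM and at 15.6 and 12.7 CPM, again overlapping. Its interval was wider than that of Efna2, from -0.33 to 0.38 around 0.02 (edgeR adjusted p = 0.930). Efna1 had lower counts than Efna2, and its libraries also differed more within each group. The part of each in the wider interval was not tested.

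**Figure D2:**
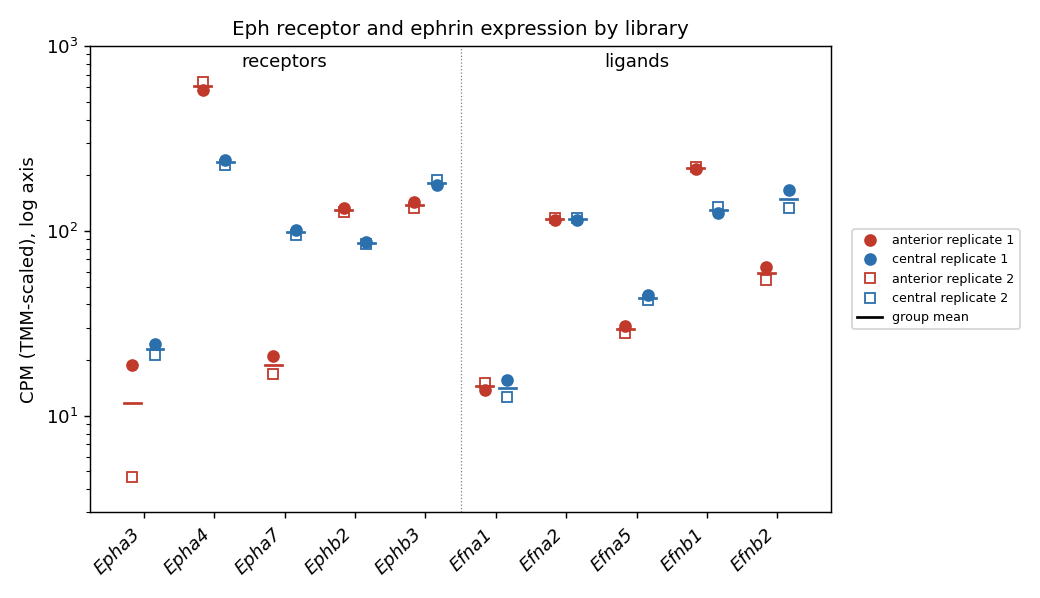
CPM after TMM scaling (log axis) of the 5 receptors and 5 ligands in each library, with anterior in red, central in blue, filled circles for replicate 1, open squares for replicate 2 and bars for group means. The groups are separate for every gene except Efna1 and Efna2, and the anterior libraries are far apart only for Epha3 (18.8 and 4.64 CPM).

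In 8 of the 10 genes the anterior and central values did not overlap, and the same held for 63.5% of all tested genes. The exceptions were Efna1 and Efna2. Among the 5 receptors, 2 rose and 2 fell; among the 5 ligands, 1 rose and 2 fell.

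Levels were compared between genes per kilobase of annotated exon (RPKM, from the CPM values and GENCODE M21 exon lengths). In anterior cells the order of mean RPKM was Epha4 (75.2 ± 5.2), Efnb1 (63.4 ± 1.2), Efna2 (54.2 ± 0.67), Ephb3 (20.8 ± 1.2), Ephb2 (10.3 ± 0.31), Efnb2 (8.58 ± 1.0), Efna1 (7.87 ± 0.52), Efna5 (7.27 ± 0.48), Epha7 (1.91 ± 0.31) and Epha3 (1.35 ± 1.15; SD, n = 2 each). Neighbouring values overlapped between libraries for Efnb2 and Efna1, for Efna1 and Efna5, and for Epha7 and Epha3. In central cells the order was Efna2 (54.4 ± 0.78), Efnb1 (37.7 ± 1.9), Epha4 (29.1 ± 1.5), Ephb3 (27.4 ± 1.1), Efnb2 (21.8 ± 3.4), Efna5 (10.8 ± 0.44), Epha7 (9.94 ± 0.47), Efna1 (7.74 ± 1.13), Ephb2 (6.81 ± 0.13) and Epha3 (2.63 ± 0.24). There the libraries of Epha4 and Ephb3 overlapped, and the other neighbours did not. Epha4 thus went from the third place in central cells to the first in anterior cells, and Epha7 from the seventh to the ninth.

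The rest of the family, 12 genes, was mixed in the same way. Of the 10 that were tested, 2 were called higher and 2 lower, and 6 were not called. Epha2, an ephrin-A receptor of epithelia and early mesoderm, measured 77.3 and 96.5 CPM in anterior cells and 12.6 and 17.0 CPM in central cells. This was the largest rise among the 20 tested genes of the family, at a log2 fold change of 2.55 ± 0.16 (SE, edgeR adjusted p = 1.21e-05), or 5.86-fold. Epha5, best known from the nervous system, was low in both groups, at 8.78 and 8.93 CPM against 5.13 and 4.94 CPM (edgeR adjusted p = 0.0186, with a log2 fold change of 0.81 ± 0.20).

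Ephb1, the receptor that guides ventral motor axons away from ephrin-B in dorsal limb, was counted 26 and 28 times in anterior libraries, against 126 and 143 times in central libraries (edgeR adjusted p = 0.00186, with a log2 fold change of -2.29 ± 0.34). A noncoding gene on the opposite strand overlaps 152 bases of its exons, and whether counting used strand is not given in the sources used here, so its counts are less certain. The same holds for Epha1 (160 bases, shared with Zyx), Ephb4, Efna3, Efna4, Epha6 and Epha10, whose exons also overlap a gene on the opposite strand. None of the limb-domain genes followed here has such an overlap. Ephb6, a family member without kinase activity, was at 21.1 and 19.7 CPM against 26.8 and 29.0 CPM (edgeR adjusted p = 0.0179, with a log2 fold change of -0.45 ± 0.11). The call for Epha5 was lost without either anterior library (adjusted p = 0.0573 without replicate 1 and 0.0733 without replicate 2), and that for Ephb6 without anterior replicate 2 (0.108) or central replicate 2 (0.0586). Epha1, Epha8, Ephb4, Efna3, Efna4 and Efnb3 were not called. Of these, Epha1 (log2 difference 0.61) was called without central replicate 2 (adjusted p = 0.00342) and with the replicate block (0.0277), and Efnb3 (-0.23) was called without central replicate 2 (0.0135). Epha6 and Epha10 failed the low-count filter, with at most 8 counts in any library.

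**Figure D3:**
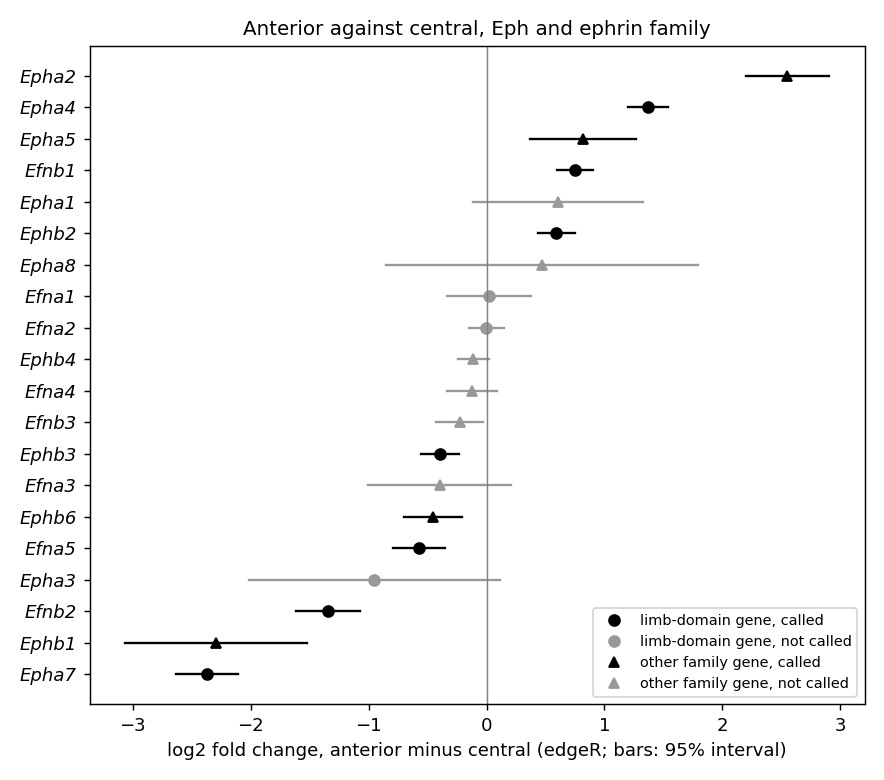
Log2 fold change (x axis, anterior minus central, with 95% intervals from edgeR) of the 20 tested genes of the family, with circles for the 10 limb-domain genes, triangles for other family genes, black for called and grey for not called. Called genes run from Epha7 (-2.37) to Epha2 (2.55), and the intervals are widest for low-count genes and for Epha3.

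When the per-kilobase levels were added up by class over the whole family, the EphA receptors were the class that differed most. Their summed level was 95.6 and 105.9 RPKM in anterior cells and 47.9 and 46.6 RPKM in central cells. Within this class, Epha4 made up 74.8% and 74.6% in anterior libraries and 62.9% and 60.2% in central libraries, Epha2 made up 17.3% and 19.5% against 5.64% and 7.78%, and Epha7 made up 2.23% and 1.60% against 21.4% and 20.6%. The ephrin-B ligands summed to 100.3 and 104.5 RPKM in anterior cells and 98.2 and 92.2 RPKM in central cells. Behind these similar sums, Efnb1 made up 62.4% and 61.5% of ephrin-B in anterior libraries and 37.1% and 42.4% in central libraries, while Efnb2 made up 9.26% and 7.53% against 24.6% and 21.1%. The EphB receptors summed to 93.6 and 90.0 RPKM against 100.8 and 102.9 RPKM, and the ephrin-A ligands to 101.7 and 102.4 RPKM against 112.1 and 106.1 RPKM. No test was run on these sums.

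**Figure D4:**
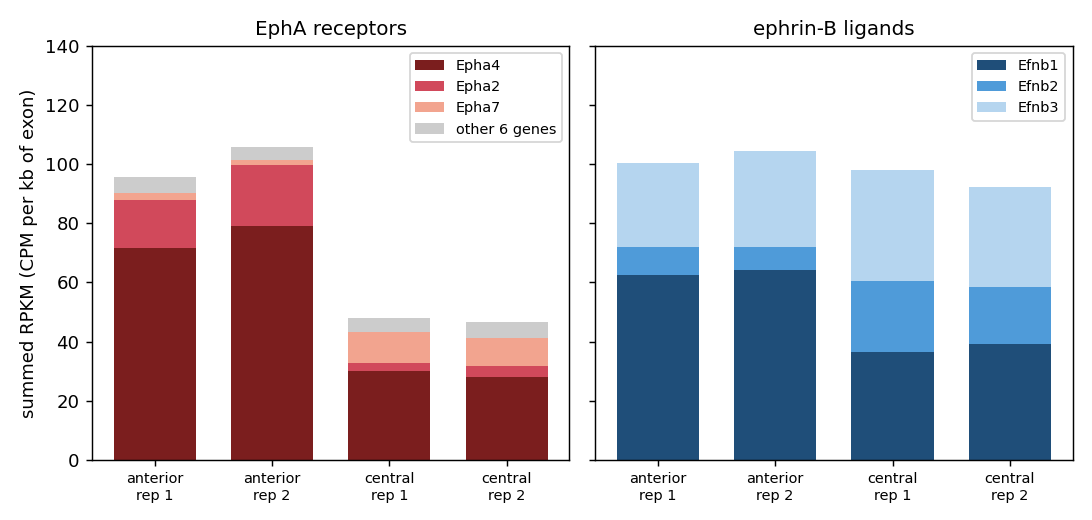
Summed RPKM (y axis, CPM per kilobase of exon) of the 9 EphA receptors (left) and the 3 ephrin-B ligands (right) in each library, stacked by gene. The EphA bars are about 100 RPKM tall in anterior and 47 RPKM in central libraries with Epha7 shrinking from central to anterior, whereas the ephrin-B bars are of similar height with a larger Efnb1 part in anterior cells.

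Genes that carry Eph and ephrin signals inside the cell were called at about the background share. Of 36 listed genes 35 were tested, and 3 were called higher, 5 lower and 27 not called, a share of 22.9% against 22.9% over all tested genes. Their median log2 fold change was -0.02. Those higher were Chn2 and Chn1, which encode chimaerins (log2 fold changes 0.75 and 0.29), and Yes1, a Src-family kinase (0.34; edgeR adjusted p = 0.0120, 0.0257 and 0.0140). Those lower included Rgs3, a regulator acting in ephrin-B reverse signalling (-0.79, edgeR adjusted p = 0.00251). A further 3, below the 5 CPM set for naming and named after their values were seen, were Arhgef19, Arhgef16 and Arhgef15, of the ephexin group (-1.81, -1.62 and -1.16; edgeR adjusted p = 0.00229, 0.00911 and 0.0352). Ngef, of the same group, had at most 18 counts in any library and was not called (-0.44, edgeR adjusted p = 0.743). The count of 8 became 4 without anterior replicate 1, 5 without anterior replicate 2 and 13 without central replicate 2.

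For the called genes of the 10 with the largest rise and fall, the closest patterns over the 4 libraries were sought among all tested genes with a mean of at least 5 CPM. Closest to Epha4 were Peli3, Slc1a3 and Naaa, at a root mean square distance of 0.038, 0.055 and 0.056 in centred log2(CPM + 0.5). Closest to Epha7 were Mcam, Dab1 and Tbx18, at 0.040, 0.055 and 0.060. With 4 libraries this mainly finds genes with a like fold change.

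Library totals ranged from 30080925 to 33257383 counts. Between 72.8% and 75.6% of counts from 1 to 10 were even. Counting both mates of a pair would give such a pattern, which was not tested; counts may then overstate fragments. Of the limb mesenchyme markers, Prrx1, Tbx4 and Pitx1 were not called (log2 differences 0.07, -0.14 and -0.05), Prrx2 and Twist1 were higher in anterior cells (1.91 and 0.83) and Pdgfra was lower (-1.17). Other cell types also differed. Endothelial markers were lower in 6 of 10 genes (summed 13.6 and 20.1 CPM in anterior against 38.2 and 47.9 CPM in central libraries). Surface ectoderm markers were lower in 8 of 10 (10.8 and 10.5 against 48.5 and 150.4 CPM). Myogenic precursor markers were lower in 8 of 8 (18.6 and 9.61 against 238.3 and 216.2 CPM, with Pax7 and Myog at 0 in both anterior libraries). Cartilage genes were lower in 3 of 5 tested (357.4 and 264.6 against 1338 and 1062 CPM, with Matn1 at 0 in anterior libraries). Schwann precursor markers were lower in 2 of 3 tested (6.42 and 5.66 against 25.6 and 20.0 CPM, with Sox10 and Foxd3 at 0 in anterior libraries and Fabp7 at 0 in all libraries). Of the neuronal markers 1 of 5 tested was lower, Isl1 (4.56 and 0.68 against 22.0 and 23.6 CPM); the list summed to 23.7 and 16.2 against 37.2 and 34.0 CPM with it and to 19.2 and 15.5 against 15.1 and 10.3 CPM without it, and Prph was at 0 in all libraries. Primitive erythroid genes were higher in 6 of 6 tested (3287 and 8382 against 5.0 and 7.91 CPM, with Hba-a1 at 0 in all libraries) and macrophage markers in 3 of 6 (19.7 and 14.4 against 7.53 and 7.07 CPM). Their part in the lower Epha7, Efnb2, Efna5, Ephb3 and Ephb1 and in the higher Epha4, Efnb1, Ephb2 and Epha2 was not tested. Nor was it tested for Epha5, Ephb6 or the called signalling genes, Arhgef19, Arhgef16 and Arhgef15 among them. In bulk libraries, fewer cells of a type and less RNA per cell cannot be told apart.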

How the data were processed

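The authors deposited one table of whole-number read counts per gene symbol, not normalized; the submitters' processing notes name STAR 2.7.9a, HTSeq, DESeq2 3.16 and mm10, without roles. Annotation and strand setting are not given in the sources used here. Columns were matched to sample titles by domain and number, with 0 columns left over. Libraries were paired-end, with 30080925 to 33257383 counts.

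The fit covered all genes and used edgeR 4.0.16 (R 4.3.3): filterByExpr default (14610 genes), TMM, quasi-likelihood F test, Benjamini-Hochberg adjustment, threshold 0.05, 2 residual degrees of freedom, no replicate block. The SE was the absolute log2 fold change divided by the square root of F. RPKM divides CPM by the length of the merged exons of all transcripts of a gene. These are from GENCODE M21 (GRCm38, the assembly of mm10), where all 22 family symbols matched. Exons little used in these cells also count, so orders between genes and class shares depend on this choice. Promoters are from RefSeq GRCm38.p6. The edgeR procedure was run on counts simulated from its own fitted dispersions, with independent libraries. Such a run checks the code and cannot show how the test behaves with pooled libraries or with both mates counted. DESeq2 1.42.0, limma 3.58.1 (voom) and the other alternatives are in the closing section.

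The members and lists were chosen with earlier results of these data known. Named were all 10 genes, every called gene of the remaining family and those failing the filter, up to 4 called signalling genes per direction at 5 CPM or more (1 of these is not reported here), 3 reported regulators beside a member, and 3 genes of closest pattern for the most raised and most lowered member. The groups share replicate numbers 1 and 2, but the labels do not tie same-numbered libraries to the same embryos.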

Additional observations from a re-analysis of the deposited data

How the results depend on the processing

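Of the 10 limb-domain genes, Epha4, Epha7, Ephb2, Efna5, Efnb1 and Efnb2 kept their direction and their call with either other scaling in edgeR (DESeq2 size factors, library totals), with limma-voom or the Wald test of DESeq2, with no low-count filter, a mean count of at least 50, halved counts, the replicate block and without each library in turn. Their number of calls ranged from 6 to 8. With the replicate block 3586 genes were called in place of 3351, and 8 of the 10, the addition being Epha3 (log2 fold change -1.19, adjusted p = 0.0147); Epha3 was also called with no filter (-0.95, adjusted p = 0.0315). Whether the shared numbers pair the libraries is unknown: deviations of same-numbered libraries correlated at 0.064 (Pearson) and 0.034 (Spearman) across genes, which are not independent replicates. Leaving out each library in turn gave 2009 to 3697 called genes, 2 to 5 of the other family genes and 4 to 13 signalling genes, the lone library of a group being assumed to vary like the others; the lowest count of all genes, 2009, came without anterior replicate 2.

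Among uncalled genes, Efna1, Efna2 and Epha8 changed sign. Efna1 became -0.0078 with library totals alone, and Efna2 became 0.0017 with DESeq2's Wald test and 0.0026 with no filter. When each library was dropped in turn, Efna1 ranged from -0.116 to 0.183, Efna2 from -0.016 to 0.013 and Epha8 (0.47 with all libraries) from -0.141, without central replicate 2, to 1.53, and none of these was called. The cause was not tested. With 2 libraries per group, the intervals of Epha3, Efna1, Efna2, Epha1, Epha8, Ephb4, Efna3 and Efna4 include 0, and differences within them were not detectable at this depth and spread.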
